A study of Mus musculus with 32 samples.

Results

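The genes of glycolysis and of the response to low oxygen were followed in brain tissue and in subdural macrophages of the brain borders after ischaemic stroke. They comprise 42 genes of 33280 rows in each count table and were taken by row name from a fixed list. All 42 had a row in both tables, and all 42 passed the filter on low counts in both (a summed count of at least 8 over 16 tissue libraries, and of at least 7 over 14 macrophage libraries). By role, 3 members carry glucose or lactate across membranes, 10 act in the upper steps of glycolysis, 8 in the lower steps, 5 regulate flux, 3 sense oxygen and 13 are hypoxia target genes.

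Wild-type C57BL/6JCrl mice of both sexes received vehicle (CTL) or BLZ945, an inhibitor of the macrophage growth factor receptor CSF1R, in doses of 200 mg/kg over 7 days, and a thromboembolic occlusion of the middle cerebral artery followed 8 weeks later. At 1 day after the stroke, the ipsilateral and contralateral hemispheres of 8 mice (A2, A3, A4 and B1 for CTL; C2, C3, C4 and D1 for BLZ945) each gave a library of whole tissue and a library of sorted subdural CNS-associated macrophages (sdCAMs). The sort kept Ly6C−Ly6G−CD11c−CD45+CD11b+CD206+ cells of brain without choroid plexus, and all libraries carry the same batch label. The study's methods put its mice at 10 ± 3 weeks of age when dosing began. The sdCAM libraries of A3 ipsilateral and C2 ipsilateral, labelled as degraded RNA, were left out. This gave n = 4 in every group but the ipsilateral sdCAM groups, where n = 3.

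Ipsilateral tissue libraries held 12450565, 11480413, 11310762, 11945178, 10291030, 10267779, 9288717 and 9641508 counts in the mouse order A2 to D1, and contralateral tissue libraries 12781505, 11667468, 9908401, 10908694, 9401549, 10074983, 11142241 and 10588430. In the 6 ipsilateral sdCAM libraries the totals were 8366777, 8297066, 9956038, 8806120, 8595045 and 10314584, and in the 8 contralateral ones 10471038, 9415481, 11081409, 8836860, 7397393, 9177495, 9464092 and 9571125. Members took up 0.951 to 1.10% of counts in tissue and 0.411 to 0.717% in sdCAMs. Levels are given as CPM (counts relative to library size) scaled within each table by trimmed means, always in the order A2, A3, A4, B1 and C2, C3, C4, D1, with A3 and C2 absent from ipsilateral sdCAMs. A gene with no count can lie as high as the level of 3 counts, which was 0.234 to 0.321 CPM in tissue and 0.253 to 0.389 CPM in sdCAMs, and such floors and all intervals cover counting error only. The left-out A3 library held 54055 counts, with 0.276% in members (exact 95% interval 0.233% to 0.324%) and counts for 27 members. The left-out C2 library held 55155, with 0.210% (0.174% to 0.252%) and 22 members. For mouse A3, the tissue titles and the column names of the table disagree on which library is ipsilateral. Library 19 was used as ipsilateral, after its title, and values with the column names are given where they change a call. In a principal component analysis of tissue over 14317 genes, which uses no hemisphere, component 2 (16.3% of variance; of components 1 to 3 the only one to separate the hemispheres) placed library 19 at 7.64 and the other A3 library at -19.2. The other 7 mice were at 4.55 to 26.9 ipsilaterally and -23.4 to -9.44 contralaterally, so on this component the A3 libraries lay as their titles say.

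Glycolysis splits glucose into pyruvate in the cytosol, gaining a little ATP without oxygen, and lactate dehydrogenase turns pyruvate into lactate when mitochondria do not take it up. Under low oxygen the prolyl hydroxylases of the Egln family no longer mark the transcription factor subunit HIF-1α for destruction, and HIF-1 then raises glucose transporters, glycolytic enzymes and genes of vessel growth. In the brain, neurons and glia exchange lactate through monocarboxylate transporters, and activated macrophages are known to lean on glycolysis.

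The labels were set against marker genes. The 9 sdCAM markers summed to 1592 to 5806 CPM in contralateral and 4589 to 9382 CPM in ipsilateral sdCAM libraries, with F13a1 the most abundant, and to 6.90 to 15.4 and 10.6 to 22.5 CPM in tissue. The microglia genes P2ry12, Tmem119, Sall1, Siglech, Sparc, Cx3cr1 and Gpr34 summed to 5533 to 15429 CPM in contralateral and 8292 to 22378 CPM in ipsilateral sdCAM libraries. That was more than the sdCAM markers in 13 of 14 libraries, the exception being D1 ipsilateral (8292 against 9382 CPM). The 8 neuron markers summed to 7058 to 10107 CPM in contralateral and 6956 to 9335 CPM in ipsilateral tissue, and to at most 137 CPM in a sdCAM library. All of these levels are scaled within each table, and no test was made across the tables.

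In tissue, the hexokinases Hk3 and Hk2 were higher in the ipsilateral than in the contralateral hemisphere, and no member was lower at the threshold of an adjusted p of 0.05. The question of this comparison is which genes differ between the hemisphere of the stroke and the other one, in each treatment and on average of both. In CTL mice, edgeR called 0 members up, against 0.485% of 18968 genes tested, and 0 down, against 0.00527%, while 4 members had an unadjusted p under 0.05 (6.23% of all genes), all up. DESeq2 called 0 in either direction (0.828% of all genes up, 0.0264% down). In BLZ945 mice, 1 member was up (Hk3; background 1.26%) and 0 were down (background 0.1%), with 9 members at an unadjusted p under 0.05 (6 up, 3 down; 10.8% of all genes). DESeq2 called 2 up (2.12% of all genes) and 0 down (0.401%). The average of both treatments gave 2 up (Hk3 and Hk2; background 2.53%) and 0 down (background 0.517%), with 8 at an unadjusted p under 0.05 (6 up, 2 down; 14.3% of all genes). DESeq2 called 3 up (3.41% of all genes) and 0 down (1.27%). The median log2 fold change of the members was 0.01 in CTL, -0.01 in BLZ945 and -0.01 on average, beside -0.01, -0.0032 and -0.01 over all genes tested. With the replicate block for the mouse, 4 members were up in BLZ945 (Hk3, Hk2, Slc16a1 and Adm), against 2.69% of all genes tested, and 6 on average (these and Slc16a3 and Ldha), against 4.06%. The average count of 2 fell to 1 without mouse A2, A3, B1, C4 or D1, Hk2 being the one lost each time, against 1.48 to 2.06% of all genes tested. With the hemispheres of A3 as in the column names it fell to 0, but so did nearly all calls, with 1 of 18968 genes up and 0 down in place of 480 and 98.

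In sdCAMs, members moved in both directions. Slc16a1, Pdk4 and Ndrg1 were lower ipsilaterally in both treatments, and Hk3 and P4ha1 were higher in BLZ945 mice. With the replicate block for the mouse, Slc16a1 and Pdk4 did not pass in CTL (edgeR adjusted p = 0.0848 and 0.0583). P4ha1 did not pass in BLZ945 with it (0.0541), and each of these genes kept its direction. CTL mice had 0 members up by edgeR, against 0.426% of 18297 genes tested, and 3 down, against 2.36% (12 at an unadjusted p under 0.05, 5 up and 7 down, against 18.3% of all genes). DESeq2 called 0 up (1.75% of all genes) and 5 down (8.21%). BLZ945 mice had 2 up, against 1.2%, and 4 down (Slc16a1, Pfkp, Pdk4 and Ndrg1), against 4.41%. On average of both treatments, 4 were up (Hk3, Pfkfb3, P4ha1 and Kdm3a), against 4.98%, and 6 down (Slc16a1, Pfkm, Aldoc, Pdk4, Bnip3 and Ndrg1), against 11.2%. The members' median log2 fold change was -0.03 in CTL, -0.24 in BLZ945 and -0.09 on average, beside -0.11, -0.15 and -0.16 over all genes tested. Pdk4, nearly without counts ipsilaterally, lay below the members' median both by its fold and by the ratio of its counts. The medians in CTL and BLZ945 could therefore not change with that choice.

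These sdCAM counts moved with the mice and the tool, as did the share of all genes called, given after each count. In CTL, the count down was 1 without mouse A2 (1.24%) and 0 without A4 (0.734%), and the count up was 1 (Pfkfb3) without C4 (0.618%). In BLZ945, the count up was 1 without B1 (1.02%) or C2 (0.474%) and 0 without C3 (0.0769%) or C4 (0.0438%), and the count down was 2 without C4 (1.43%) or D1 (2.55%). The average count up was 2 without A4 (2.64%), B1 (3.36%) or C3 (2.69%). DESeq2 called 8 members down in BLZ945 (10.95%) and 11 on average (16.5%). With the replicate block, BLZ945 had 1 up (Hk3, 1.46%) and 7 down (3.73%). In CTL the block lost the calls of Slc16a1 and Pdk4 and gained Aldoc, lower ipsilaterally (1.48% of all genes down). On average it gained Pfkp, Ldhb and P4ha2, all lower (7.06% of all genes down, against 11.2% without the block). With all 16 libraries, the degraded ones included, the counts were 1 down in CTL (1.10%), 0 up (0.0217%) and 2 down (2.30%) in BLZ945, and 0 up (0.456%) and 3 down (5.99%) on average. Slc16a1, Pdk4 and Ndrg1 passed on average under each alternative run.

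**Figure D1:**
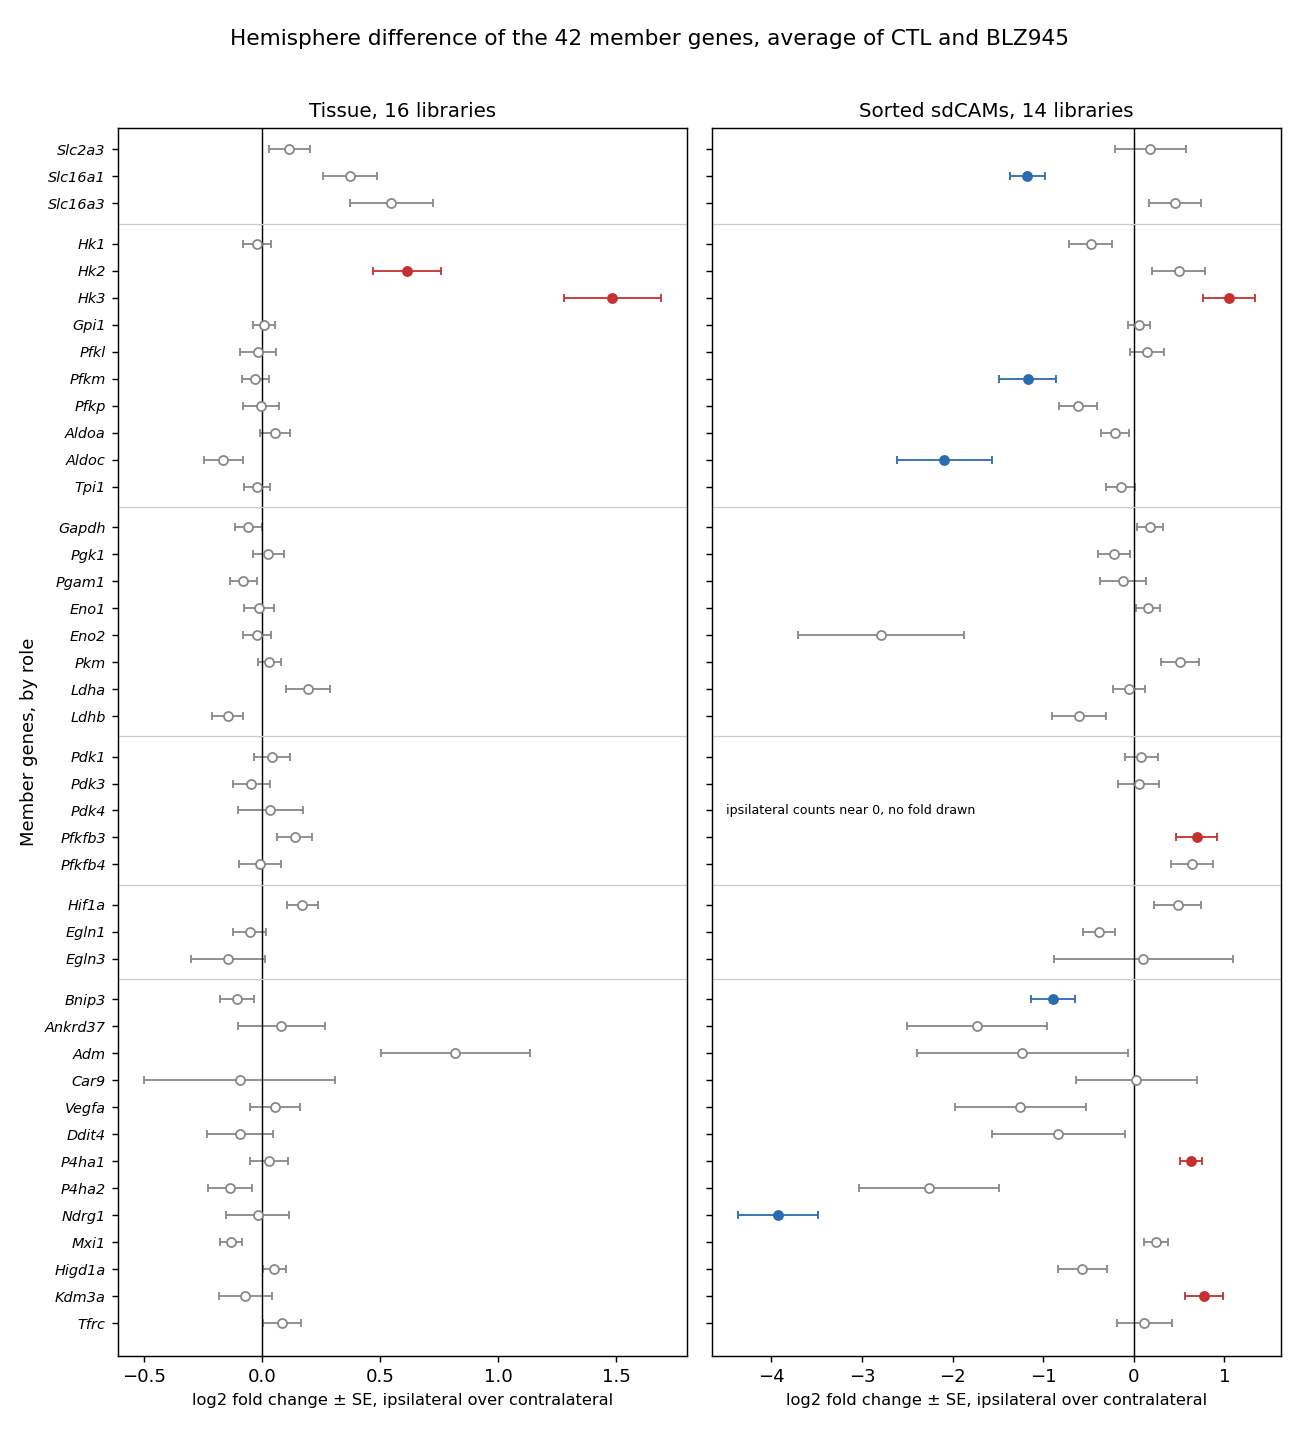
Each point is the log2 fold change (x axis, ipsilateral over contralateral, average of CTL and BLZ945) of 1 of the 42 members with its standard error, in 16 tissue libraries (left) and 14 sdCAM libraries (right), on x axes of different range; filled points passed an edgeR adjusted p of 0.05 (red higher, blue lower), grey lines part the roles, and Pdk4 in sdCAMs is left blank. In tissue only Hk2 (0.61) and Hk3 (1.48) are filled, and in sdCAMs the drawn values run from -3.92 for Ndrg1 to 1.05 for Hk3.

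Marker genes of other cells moved with the hemisphere in the sdCAM libraries, beside every member difference given for sdCAMs here. In the average comparison, where edgeR called 4.98% of all genes up and 11.2% down, 7 of 7 endothelial markers were lower ipsilaterally, and their sum had lowest, median and highest 911, 1967 and 2790 CPM contralaterally and 57.4, 88.9 and 198 CPM ipsilaterally (most abundant Ly6c1). The oligodendrocyte genes Mbp, Mog, Mag, Mobp, Cnp and Cldn11 were each lower, with a sum of 445 to 2357 CPM contralaterally and 212 to 683 CPM ipsilaterally. Of the astrocyte markers 5 of 7 were lower, with lowest, median and highest 265, 938 and 1546 CPM contralaterally and 174, 346 and 599 CPM ipsilaterally (Slc1a3). Choroid plexus markers were lower for 4 of 6, with lowest, median and highest 30.7, 3412 and 37683 CPM contralaterally and 0.502, 288 and 1513 CPM ipsilaterally (Ttr), although the choroid plexus had been removed. Fibroblast and mural cell markers were lower for 3 of 8 (contralateral sum 209 to 866, ipsilateral 43.6 to 496 CPM, Rgs5), neuron markers for 2 of 8 (21.96 to 137 and 0 to 45.1 CPM, Stmn2) and red blood cell markers for 2 of 3 tested (73.1 to 1159 and 7.10 to 150 CPM, Hba-a1, with Hba-a2 at 0 counts in all libraries). The sdCAM markers rose for 8 of 9 on average and 3 of 9 in BLZ945 (9 by DESeq2), while edgeR called 0 of 9 in CTL (1 at an unadjusted p under 0.05; 0 by DESeq2). Their sum was higher ipsilaterally in 5 of 6 mice and lower in A2 (5430 CPM contralaterally, 4589 ipsilaterally). Hk3 and P4ha1 were called up in the same treatment, BLZ945, and not in CTL. The sum of the 7 microglia genes was higher ipsilaterally in 5 of 6 mice and slightly lower in B1 (11700 CPM contralaterally, 11403 ipsilaterally), beside the rises of Hk3, Pfkfb3, P4ha1 and Kdm3a. Of the 7 genes Cx3cr1 rose on average, and P2ry12 and Siglech did not pass (edgeR adjusted p = 0.220 and 0.310). By edgeR 0 of 8 neutrophil, 0 of 7 monocyte and 0 of 6 T and NK cell markers passed (0 at an unadjusted p under 0.05 in each of the 3 lists; 0 by DESeq2). The part of these transcripts in the member differences was not tested, and fewer cells of a type and less RNA per cell cannot be told apart in such libraries.

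**Figure D2:**
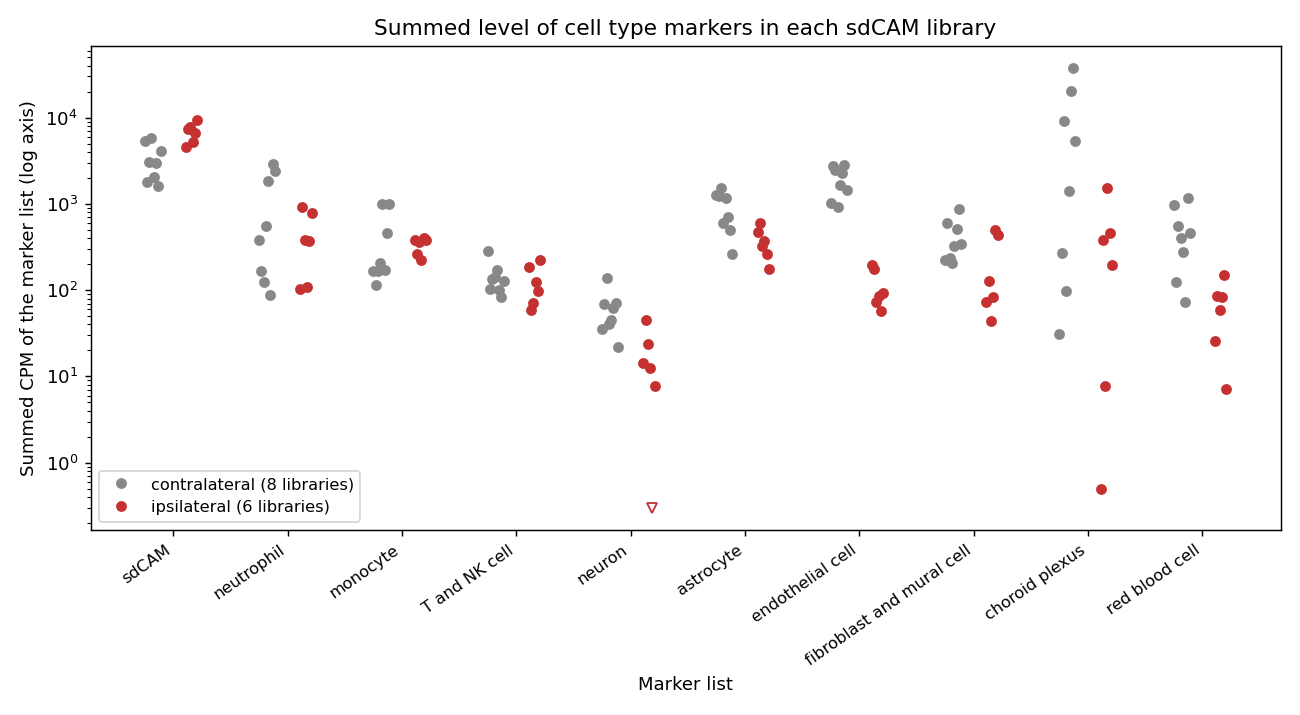
Summed CPM (log axis) of each of 10 marker lists in each of 14 sdCAM libraries, grey for 8 contralateral and red for 6 ipsilateral libraries; the open triangle is a sum of 0. The endothelial sums do not overlap between the hemispheres (911 to 2790 against 57.4 to 198 CPM), while those of neutrophils, monocytes and T and NK cells do.

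Of the 3 transporters, Slc16a1, which carries lactate and other monocarboxylates, was lower in ipsilateral sdCAMs. Its level in sdCAMs was 113, 222, 201 and 136 CPM contralaterally and 65.7, 64.7 and 90.7 ipsilaterally in CTL, and 84.7, 126, 170 and 125 contralaterally and 62.4, 58.0 and 48.8 ipsilaterally in BLZ945. The groups did not overlap within either treatment, and A3 and A4 were the highest contralateral libraries. The average of both treatments had a log2 fold change of -1.17 ± 0.20 SE, edgeR adjusted p = 0.00109, and Slc16a1 was lower in 6 of 6 mice. CTL and BLZ945 gave -1.19 (edgeR adjusted p = 0.0328) and -1.16 (edgeR adjusted p = 0.0240). In CTL alone, the edgeR call was lost without mouse A2 (0.0758), A3 (0.111), A4 (0.211), B1 (0.0527) or C3 (0.0582), with the replicate block (0.0848) and with all 16 libraries (0.176), with a range of 0.000612 to 0.211 over all alternatives. In BLZ945 alone, it was lost without mouse C3 (0.0995), C4 (0.153) or D1 (0.111) and with all 16 libraries (0.299) by edgeR's adjusted p, with a range of 0.000563 to 0.299. In tissue, Slc16a1 stood at 38.7, 43.6, 36.4 and 45.0 CPM contralaterally and 49.1, 53.4, 40.9 and 69.5 ipsilaterally in CTL, and 36.7, 27.7, 41.5 and 43.2 contralaterally and 58.1, 39.4, 45.5 and 49.5 ipsilaterally in BLZ945. The hemispheres overlapped in both treatments, with B1 ipsilateral the highest library. It was higher in 8 of 8 mice, at a log2 fold change of 0.37 ± 0.11 SE, edgeR adjusted p = 0.0938, and did not pass. It did by DESeq2 (adjusted p = 0.0356) and with the replicate block (edgeR adjusted p = 0.00206, range 0.00206 to 0.394, on average and 0.0391, range 0.0391 to 0.804, in BLZ945).

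Slc2a3, the high-affinity glucose transporter of neurons, did not pass in either material. In tissue it stood at 145, 151, 191 and 158 CPM contralaterally and 181, 192, 192 and 145 ipsilaterally in CTL, and 146, 172, 181 and 160 contralaterally and 156, 219, 162 and 164 ipsilaterally in BLZ945. The hemispheres overlapped in both treatments, with C3 ipsilateral the highest library, and Slc2a3 was higher in 6 of 8 mice (log2 fold change of 0.12 ± 0.09 SE, edgeR adjusted p = 0.625). In sdCAMs its values were 33.0, 11.8, 19.2 and 18.2 CPM contralaterally and 7.02, 31.1 and 34.7 ipsilaterally in CTL, and 34.1, 27.3, 10.5 and 25.1 contralaterally and 12.4, 28.2 and 38.7 ipsilaterally in BLZ945. A2 ipsilateral was the lowest library and D1 ipsilateral the highest, and the groups overlapped in both treatments (log2 fold change of 0.18 ± 0.40 SE, edgeR adjusted p = 0.835; higher in 4 of 6 mice). Slc16a3, the lactate exporter of glycolytic cells, read 3.80, 5.78, 3.92 and 2.87 CPM contralaterally and 4.29, 6.86, 6.54 and 6.43 ipsilaterally in CTL, and 3.21, 4.08, 5.58 and 2.81 contralaterally and 4.91, 6.42, 5.15 and 6.39 ipsilaterally in BLZ945 in tissue. The groups overlapped through A3 and C4 contralateral (higher in 7 of 8 mice; log2 fold change of 0.55 ± 0.17 SE, edgeR adjusted p = 0.116; 0.0369 with the replicate block, range 0.0369 to 0.358). In sdCAMs it gave a log2 fold change of 0.45 ± 0.29 SE, edgeR adjusted p = 0.307, and was higher in 5 of 6 mice.

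Hexokinases trap glucose in the cell as glucose-6-phosphate, and Hk3 is the isozyme known from myeloid cells. Hk3 in tissue read 1.35, 1.87, 1.65 and 1.39 CPM contralaterally and 4.06, 2.40, 2.21 and 3.71 ipsilaterally in CTL, and 1.29, 1.15, 1.21 and 1.59 contralaterally and 5.10, 6.52, 2.84 and 6.39 ipsilaterally in BLZ945. Every ipsilateral library was above every contralateral one in both treatments, with A2 and B1 the highest of CTL and C4 the lowest of BLZ945. It rose on average with a log2 fold change of 1.48 ± 0.20 SE, edgeR adjusted p = 0.000363, and was higher in 8 of 8 mice. In BLZ945 the change was 1.98 ± 0.29 (edgeR adjusted p = 0.00159), and in CTL 0.98 ± 0.29 (edgeR adjusted p = 0.289). The difference between the treatments did not pass (interaction 1.00 ± 0.41, edgeR adjusted p = 1.00), so the effect is not shown to differ between them. With the hemispheres of A3 as in the column names, the average change of Hk3 was 1.39 and no longer passed (edgeR adjusted p = 0.0556, range over all alternatives 4.54e-08 to 0.0556), while in BLZ945 Hk3 passed under each alternative. Some marker genes of neutrophils and monocytes also passed in tissue. The sums of their lists were 0.107 to 1.40 and 19.4 to 34.3 CPM contralaterally and 0.547 to 4.61 and 24.4 to 38.3 CPM ipsilaterally (most abundant S100a9 and Vcan), with 2 of 4 tested neutrophil genes (S100a9 and Cxcr2) and 2 of 7 monocyte genes (Plac8 and F10) up by edgeR (2 and 4 by DESeq2), and their part in the result was not tested.

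By tissue library, the neutrophil sum was 0.238, 0.255, 0.619, 0.370, 0.107, 0.418, 0.279 and 1.40 CPM contralaterally and 0.547, 1.97, 1.24, 4.61, 3.49, 0.902, 3.78 and 3.80 CPM ipsilaterally for the mice A2 to D1. The monocyte sum was 27.03, 29.5, 29.6, 19.4, 23.4, 34.3, 26.3 and 20.3 CPM contralaterally and 24.4, 25.8, 38.3, 28.9, 33.5, 26.9, 25.3 and 30.5 CPM ipsilaterally. The neutrophil sum was higher ipsilaterally in 8 of 8 mice, as Hk3 and the sum of sdCAM markers (8 of 8) were. The sum of endothelial markers was higher ipsilaterally in 7 of 8 mice. That of T and NK cell markers was too, at no more than 0.859 CPM. In A3 (0.257 CPM ipsilaterally, 0.255 contralaterally) and C4 (0.105 and 0.0930) both hemispheres held the same count. Those sums differ by library size only. The monocyte sum was higher ipsilaterally in 4 of 8 (A4, B1, C2 and D1), and Vcan, at a mean of 25.9 CPM, made up most of it. Plac8 and F10 of that list were up by edgeR, as given above. Of the other lists in the average tissue comparison, 1 of 7 astrocyte genes (Gfap) and 2 of 7 endothelial genes (Pecam1 and Cdh5) were up by edgeR (DESeq2: 1 astrocyte gene up, and 2 endothelial genes up and 1, Slco1a4, down), at sums of 4237 to 5255 and 4203 to 5484 CPM, and 215 to 287 and 243 to 353 CPM (contralateral and ipsilateral; most abundant Slc1a2 and Flt1). Of the 7 microglia genes summed above, edgeR called 2 down (P2ry12 and Siglech) and 0 up (1 higher at an unadjusted p under 0.05, Cx3cr1, edgeR adjusted p = 0.0860), and DESeq2 called 2 down and 1 up (Cx3cr1). Their sum was 360 to 960 CPM contralaterally and 355 to 904 CPM ipsilaterally. Sparc, at a mean of 545 CPM, made up most of it, so the sum says little of the other genes. By edgeR, 0 of 9 sdCAM genes passed in tissue (4 at an unadjusted p under 0.05, all up; 1 by DESeq2). The same test called 0 of 3 T and NK cell genes tested (1 unadjusted), 0 of 8 neuron genes (3, all down), 0 of 8 fibroblast and mural cell genes (2), 0 of 6 choroid plexus genes (0) and 0 of 3 red blood cell genes tested (0), and DESeq2 called 0 in each of these 5 lists.

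In sdCAMs, Hk3 measured 111, 43.6, 42.4 and 82.6 CPM contralaterally and 106, 104 and 105 ipsilaterally in CTL, and 50.3, 50.8, 21.5 and 95.7 contralaterally and 125, 148 and 192 ipsilaterally in BLZ945. All 3 BLZ945 ipsilateral libraries were above the 4 contralateral ones, whereas in CTL the contralateral library of A2 exceeded every ipsilateral one. The average log2 fold change of 1.05 ± 0.29 SE, edgeR adjusted p = 0.0224 with Hk3 higher in 5 of 6 mice was carried by both treatments in sign, with 1.51 in BLZ945 (edgeR adjusted p = 0.0427) and 0.59 in CTL (edgeR adjusted p = 0.447). The interaction was 0.92 ± 0.58 (edgeR adjusted p = 1.00). On average the call was lost without mouse A4 (0.0692) or C3 (0.0520) and with all 16 libraries (0.482) by edgeR's adjusted p, which ranged from 0.00581 to 0.482 over all alternatives. In BLZ945 alone, that of Hk3 was lost without mouse B1 (0.0613), C2 (0.0929), C3 (0.131) or C4 (0.157) and with all 16 libraries (0.483), again as edgeR adjusted p, with a range of 0.00631 to 0.483.

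Hk2, the inducible hexokinase and a known HIF-1 target, stood in tissue at 4.52, 4.76, 5.57 and 5.27 CPM contralaterally and 7.34, 8.75, 6.37 and 6.84 ipsilaterally in CTL, and 7.71, 3.76, 4.19 and 4.87 contralaterally and 10.01, 7.02, 8.20 and 7.69 ipsilaterally in BLZ945. In CTL the hemispheres did not overlap, while in BLZ945 the contralateral library of C2 lay above the ipsilateral ones of C3 and D1. On average Hk2 rose with a log2 fold change of 0.61 ± 0.15 SE, edgeR adjusted p = 0.0262, and was higher in 8 of 8 mice. Neither treatment alone passed by edgeR (0.54, edgeR adjusted p = 0.604 in CTL, and 0.68, edgeR adjusted p = 0.144 in BLZ945), though BLZ945 did with DESeq2 (adjusted p = 0.0487) and with the replicate block (edgeR adjusted p = 0.0271, range 0.0271 to 0.474). For Hk2 the average call was lost without mouse A2 (0.100), A3 (0.111), B1 (0.0732), C4 (0.0874) or D1 (0.0720) and with the hemispheres of A3 as in the column names (0.447) by edgeR's adjusted p, with a range of 0.00195 to 0.447 over all alternatives. In sdCAMs Hk2 read 82.4, 44.0, 65.8 and 65.7 CPM contralaterally and 62.8, 85.1 and 99.9 ipsilaterally in CTL, and 49.9, 62.2, 13.3 and 79.1 contralaterally and 72.8, 65.1 and 99.8 ipsilaterally in BLZ945. The groups overlapped and C4 contralateral was the lowest library, with a log2 fold change of 0.49 ± 0.29 SE, edgeR adjusted p = 0.271 (higher in 5 of 6 mice). Hk1, the housekeeping isozyme of brain, gave -0.02 ± 0.06 in tissue and -0.48 ± 0.24 in sdCAMs.

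Phosphofructokinase commits sugar phosphates to glycolysis and exists as the subunits Pfkl, Pfkm and Pfkp. Pfkm, named for muscle, read 40.3, 54.0, 58.7 and 24.8 CPM contralaterally and 31.7, 19.1 and 8.15 ipsilaterally in CTL, and 28.6, 47.1, 34.0 and 21.3 contralaterally and 17.5, 14.1 and 12.3 ipsilaterally in BLZ945 in sdCAMs. It was lower in every ipsilateral BLZ945 library than in any contralateral one, while in CTL the ipsilateral library of A2 lay above the contralateral one of B1. It fell on average (log2 fold change of -1.17 ± 0.32 SE, edgeR adjusted p = 0.0207), lower in 6 of 6 mice, and the edgeR call was lost without mouse A4 (0.0806), C3 (0.0604) or C4 (0.0672) and with all 16 libraries (0.0851), with a range of 0.00121 to 0.0851. DESeq2 called Pfkm in BLZ945 alone (adjusted p = 0.0436, range 0.0436 to 0.395), where edgeR did not (adjusted p = 0.142). Pfkp, the platelet form, measured 82.2, 71.7, 91.2 and 87.4 CPM contralaterally and 79.8, 47.7 and 108 ipsilaterally in CTL, and 95.6, 135, 228 and 130 contralaterally and 60.9, 60.3 and 77.2 ipsilaterally in BLZ945 in the same libraries. C4 contralateral was the highest, the groups of BLZ945 did not overlap and those of CTL did. Pfkp fell in BLZ945 (log2 fold change of -1.15 ± 0.30 SE, edgeR adjusted p = 0.0373) and not by the test in CTL (-0.08, edgeR adjusted p = 0.934), lower in 5 of 6 mice over both, and the interaction did not pass (-1.07 ± 0.42, edgeR adjusted p = 0.992). Without mouse C4 the BLZ945 change was -0.80, and for Pfkp the edgeR call was lost without mouse C3 (0.156), C4 (0.260) or D1 (0.0765) and with all 16 libraries (0.304), with a range of 0.00151 to 0.304. The average of Pfkp was -0.62 (edgeR adjusted p = 0.0570, but 0.0465 without mouse B1, 0.0352 without C2, 0.0353 with DESeq2 size factors, 0.0475 with filterByExpr and 0.0464 with the replicate block, over a range of 0.0104 to 0.260). In tissue the subunits Pfkl, Pfkm and Pfkp gave -0.02, -0.03 and 0.00 on the log2 scale, and Pfkl in sdCAMs 0.15.

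Aldolase cleaves a sugar bisphosphate into triose phosphates, and Aldoc is its form in brain, abundant in astrocytes. In sdCAMs, Aldoc was at 508, 340, 691 and 173 CPM contralaterally and 99.1, 263 and 22.9 ipsilaterally in CTL, and 414, 261, 218 and 76.8 contralaterally and 76.0, 41.3 and 16.4 ipsilaterally in BLZ945. Values spread widely, with A4 contralateral the highest and D1 ipsilateral the lowest, and overlapped in CTL, where A4 ipsilateral exceeded B1 contralateral, but not in BLZ945. Aldoc fell on average with a log2 fold change of -2.09 ± 0.53 SE, edgeR adjusted p = 0.0149, lower in 6 of 6 mice. By edgeR, the call was lost without mouse A2 (0.0507) or C4 (0.0519) and with all 16 libraries (0.0741), with a range of 0.000101 to 0.0741, and with the replicate block Aldoc passed in each treatment (edgeR adjusted p = 0.00367 in CTL and 0.00206 in BLZ945, against 0.222 and 0.0737 without, ranges 0.00367 to 0.456 and 0.00206 to 0.426). In BLZ945 it also passed without mouse B1 and with no filter (edgeR adjusted p = 0.0315 and 0.0347) and by DESeq2 (0.0138). The remaining upper-step members in sdCAMs, Aldoa, Gpi1 and Tpi1, had log2 fold changes of -0.21, 0.06 and -0.15, and in tissue Aldoa, Aldoc, Gpi1 and Tpi1 had 0.05, -0.16, 0.01 and -0.02, none past the test.

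**Figure D3:**
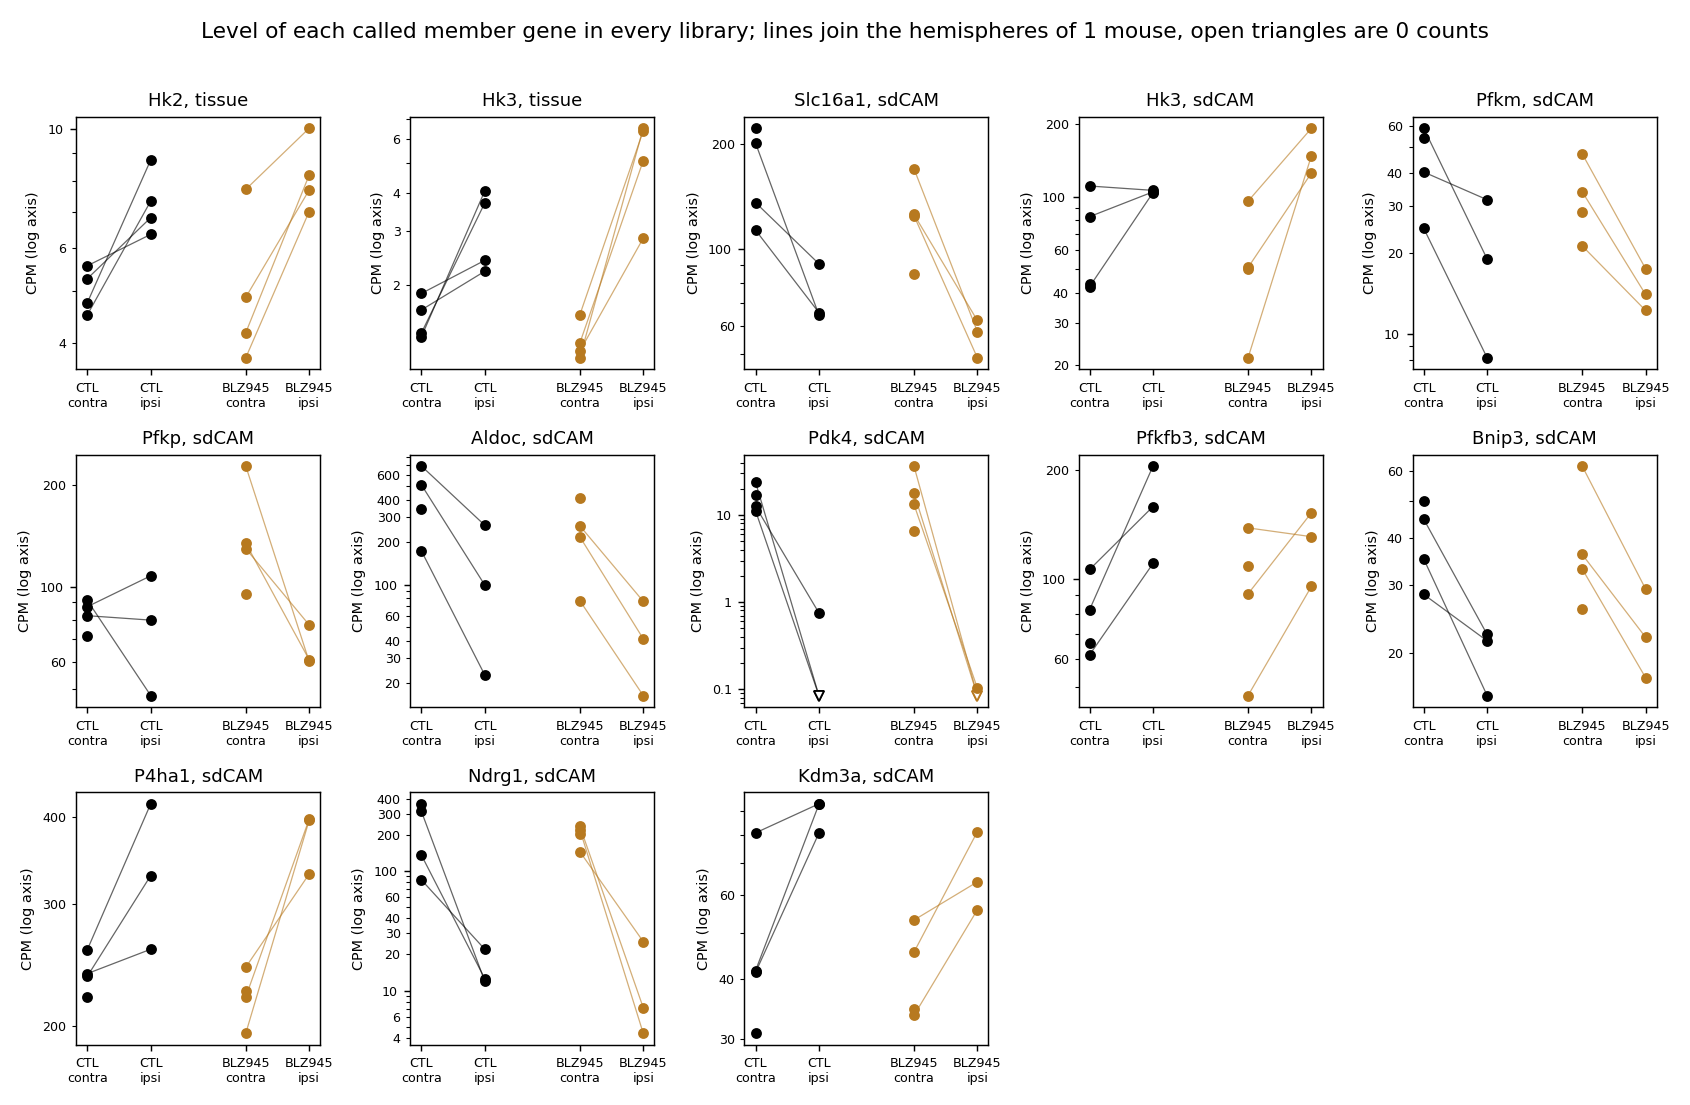
Level (CPM, log axis) of each member called in any comparison, in every library by treatment (black CTL, brown BLZ945) and hemisphere, with lines joining the 2 libraries of a mouse and open triangles for 0 counts. Hk3 in tissue is higher ipsilaterally in 8 of 8 mice, and Ndrg1 in sdCAMs lower in 6 of 6.

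The 8 enzymes of the lower steps, from Gapdh to the lactate dehydrogenases, held no call in either material (by edgeR 0 of 8 on average). The replicate block changed this for Ldha, higher in the tissue average (edgeR adjusted p = 0.0309, 4.06% of all genes up). It also did for Ldhb in sdCAMs, lower on average (0.0150, 7.06% down) and in BLZ945 (0.0358, 3.73% down). In tissue 1 had an unadjusted p under 0.05 (14.3% of all genes) and DESeq2 called 0. In sdCAMs 2 had an unadjusted p under 0.05 (31.5% of all genes) and DESeq2 called 1, Eno2. Gapdh, which oxidises glyceraldehyde-3-phosphate, read 685, 644, 718 and 751 CPM contralaterally and 646, 724, 619 and 753 ipsilaterally in CTL, and 718, 760, 727 and 632 contralaterally and 658, 709, 624 and 677 ipsilaterally in BLZ945 in tissue. Hemispheres overlapped in both treatments (log2 fold change of -0.06 ± 0.06 SE, edgeR adjusted p = 0.747; higher in 3 of 8 mice). Gapdh in sdCAMs read 288, 247, 220 and 212 CPM contralaterally and 364, 225 and 296 ipsilaterally in CTL, and 355, 255, 327 and 300 contralaterally and 335, 374 and 264 ipsilaterally in BLZ945. Here too the groups overlapped (log2 fold change of 0.18 ± 0.14 SE, edgeR adjusted p = 0.437; higher in 5 of 6 mice). The tables also hold 3 Gapdh pseudogenes with 135 counts in all against 119449 for Gapdh in tissue (19 against 37281 in sdCAMs), and Eno1b, a near copy of Eno1, has 0 counts in tissue and 4 in sdCAMs. How reads that fit several places were counted is not given in the sources used here, so the levels of Gapdh and Eno1 are uncertain.

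Lactate dehydrogenase A, encoded by Ldha, favours the step from pyruvate to lactate. Ldha in tissue was 139, 146, 175 and 156 CPM contralaterally and 186, 187, 190 and 151 ipsilaterally in CTL, and 147, 204, 175 and 144 contralaterally and 165, 227, 208 and 154 ipsilaterally in BLZ945. The hemispheres overlapped, B1 being the mouse with the lower ipsilateral value (higher in 7 of 8 mice). Its log2 fold change of 0.19 ± 0.09 SE, edgeR adjusted p = 0.365 did not pass, but did with the replicate block (edgeR adjusted p = 0.0309, range over all alternatives 0.0309 to 0.801). Ldha in sdCAMs was 326, 454, 282 and 336 CPM contralaterally and 447, 235 and 461 ipsilaterally in CTL, and 363, 387, 603 and 491 contralaterally and 391, 417 and 363 ipsilaterally in BLZ945. Groups overlapped, and C4 contralateral was the highest library (log2 fold change of -0.06 ± 0.18 SE, edgeR adjusted p = 0.901; higher in 3 of 6 mice). Ldhb, the form that favours lactate use, gave -0.15 ± 0.07 in tissue (lower in 6 of 8 mice) and -0.61 ± 0.30 in sdCAMs (lower in 6 of 6 mice; edgeR adjusted p = 0.180, and 0.0150, range 0.0150 to 0.399, with the replicate block on average and 0.0358, range 0.0358 to 0.609, in BLZ945).

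Eno2, the neuronal enolase, lay just outside the threshold in sdCAMs. Its counts there were 201, 45, 188 and 25 contralaterally and 3, 1 and 16 ipsilaterally in CTL mice, and 25, 33, 197 and 29 and 10, 40 and 1 in BLZ945 mice. A2, A4 and C4 contralateral held most of them, and the groups overlapped in BLZ945 through C4, and not in CTL. The log2 fold change of -2.79 ± 0.92 SE, edgeR adjusted p = 0.0501 did not pass, but did without mouse B1 (0.0363), with DESeq2 size factors (0.0448), with no filter (0.0440) and with filterByExpr (0.0424) as edgeR adjusted p. DESeq2 called Eno2 on average (0.00240, range over all alternatives 0.00240 to 0.310) and in CTL (0.0104, range 0.0104 to 0.434), and Eno2 was lower in 6 of 6 mice. The other enzymes, Pgk1, Pgam1, Eno1 and Pkm, which run from phosphoglycerate to pyruvate, gave -0.22, -0.12, 0.15 and 0.51 on the log2 scale in sdCAMs, Pkm passing without A4 (edgeR adjusted p = 0.0228 against 0.112, range 0.0228 to 0.985; higher in 5 of 6 mice). In tissue these 4 and Eno2 stayed between -0.08 (Pgam1) and 0.03 (Pkm).

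Among the regulators, Pdk4 was nearly absent from ipsilateral sdCAMs. Pdk4 encodes a pyruvate dehydrogenase kinase, which keeps pyruvate out of the mitochondrial cycle and is raised in fasting. Its counts were 119, 176, 282 and 115 in contralateral and 0, 0 and 7 in ipsilateral CTL libraries, and 52, 173, 362 and 129 in contralateral and 0, 0 and 1 in ipsilateral BLZ945 libraries. No ipsilateral library reached a contralateral one, and 4 of the 6 had none. Summed over libraries, 692 contralateral against 7 ipsilateral counts in CTL gave a ratio of 58.9 after scaling by library size (exact 95% counting interval 28.4 to 147), and 716 against 1 in BLZ945 a ratio of 498 (89.1 to 19689). The edgeR adjusted p was 0.0168 in CTL, 0.00391 in BLZ945 and 0.000179 on average, with Pdk4 lower in 6 of 6 mice. In CTL it was lost without mouse A2 (0.0529) or A4 (0.0910), with the replicate block (0.0583) and with all 16 libraries (0.385) as edgeR adjusted p, with a range of 3.17e-08 to 0.385. In tissue Pdk4 read 10.2, 15.1, 10.3 and 9.99 CPM contralaterally and 8.35, 13.5, 13.5 and 13.7 ipsilaterally in CTL, and 12.2, 13.6, 11.9 and 16.2 contralaterally and 15.02, 13.5, 9.36 and 14.9 ipsilaterally in BLZ945. The hemispheres overlapped in both treatments (log2 fold change of 0.04 ± 0.14 SE, edgeR adjusted p = 0.957; higher in 3 of 8 mice).

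Pfkfb3 makes fructose-2,6-bisphosphate, the activator of phosphofructokinase. It read 61.5, 66.2, 106 and 82.0 CPM contralaterally and 110, 158 and 205 ipsilaterally in CTL, and 108, 90.7, 47.4 and 138 contralaterally and 152, 95.1 and 131 ipsilaterally in BLZ945 in sdCAMs. In CTL all ipsilateral libraries were above the contralateral ones, whereas in BLZ945 the groups overlapped and D1 was slightly lower ipsilaterally. Pfkfb3 rose on average, just inside the threshold (log2 fold change of 0.70 ± 0.23 SE, edgeR adjusted p = 0.0486; higher in 5 of 6 mice). By edgeR it was lost without mouse A2 (0.0531), A3 (0.0808), A4 (0.0663), B1 (0.147), C2 (0.0610) or C3 (0.154), with DESeq2 size factors (0.0668) and with all 16 libraries (0.783), with a range of 0.0273 to 0.783, and in CTL, where it did not pass (1.00, edgeR adjusted p = 0.110), it did without C4 (0.0477, range 0.0477 to 0.826). Pfkfb4, another kinase of this kind, stood just outside (log2 fold change of 0.64 ± 0.23 SE, edgeR adjusted p = 0.0673; higher in 6 of 6 mice; 0.0431 without C4, range 0.0431 to 0.644). The pyruvate dehydrogenase kinases Pdk1 and Pdk3 gave 0.08 and 0.05 in sdCAMs and 0.04 and -0.05 in tissue, and in tissue Pfkfb3 and Pfkfb4 gave 0.14 and -0.01.

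Of the 3 members of oxygen sensing, none passed in either material by edgeR on average (1 each at an unadjusted p under 0.05, Hif1a in tissue and Egln1 in sdCAMs, against 14.3% and 31.5% of all genes; DESeq2 called 0 in tissue and Egln1 in sdCAMs). Hif1a, which encodes the regulated subunit of HIF-1 and is controlled mostly at the protein, read 62.9, 64.8, 59.4 and 63.9 CPM contralaterally and 75.4, 70.6, 65.5 and 64.2 ipsilaterally in CTL, and 65.8, 59.2, 65.5 and 71.8 contralaterally and 90.2, 65.0, 71.3 and 76.1 ipsilaterally in BLZ945 in tissue. Although higher in 8 of 8 mice ipsilaterally, the groups overlapped, in CTL only through B1 ipsilateral and A3 contralateral (log2 fold change of 0.17 ± 0.07 SE, edgeR adjusted p = 0.217). Hif1a in sdCAMs read 125, 114, 221 and 191 CPM contralaterally and 315, 181 and 463 ipsilaterally in CTL, and 414, 172, 199 and 425 contralaterally and 252, 267 and 386 ipsilaterally in BLZ945. A2 and B1 ipsilateral were the highest of CTL, C2 and D1 contralateral the highest of BLZ945, and both treatments overlapped (log2 fold change of 0.49 ± 0.26 SE, edgeR adjusted p = 0.219; higher in 4 of 6 mice). Its interaction in sdCAMs was -0.98 ± 0.53 (edgeR adjusted p = 0.998). The prolyl hydroxylases Egln1 and Egln3 gave -0.05 and -0.14 in tissue, and Egln1 -0.38 ± 0.18 in sdCAMs (lower in 5 of 6 mice; edgeR adjusted p = 0.159, DESeq2 0.0385, range 0.0385 to 0.397). Egln3 ranged from 0 to 168 counts over the 14 sdCAM libraries.

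Among the 13 hypoxia target genes, 2 rose and 2 fell in the sdCAM average, where 4.98% of all genes were up and 11.2% down. None passed in the tissue average (by edgeR 0 of 13, against 2.53% up and 0.517% down, with 2 at an unadjusted p under 0.05, against 14.3%, and 0 by DESeq2). With the replicate block Adm passed there as higher (edgeR adjusted p = 0.00967, 4.06% of all genes up). Ndrg1, a gene induced by hypoxia and abundant in myelinating cells, showed 135, 362, 313 and 83.9 CPM contralaterally and 12.5, 11.9 and 22.1 ipsilaterally in CTL, and 202, 235, 221 and 144 contralaterally and 7.19, 4.39 and 25.6 ipsilaterally in BLZ945 in sdCAMs. Every ipsilateral library lay far below every contralateral one, and A3 and A4 contralateral were the highest. Ndrg1 fell by 3.92 ± 0.44 (SE) on the log2 scale on average (edgeR adjusted p = 7.16e-05), lower in 6 of 6 mice, with -3.84 in CTL (edgeR adjusted p = 0.00568) and -4.00 in BLZ945 (edgeR adjusted p = 0.00272). In CTL the edgeR call of Ndrg1 was lost without mouse A4 (0.0554), with a range of 4.38e-10 to 0.0554. Ndrg1 in tissue read 151, 167, 118 and 138 CPM contralaterally and 128, 180, 105 and 170 ipsilaterally in CTL, and 145, 102, 104 and 137 contralaterally and 142, 83.2, 103 and 141 ipsilaterally in BLZ945. The hemispheres overlapped and C3 ipsilateral was the lowest library (log2 fold change of -0.02 ± 0.13 SE, edgeR adjusted p = 0.981; higher in 3 of 8 mice).

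P4ha1, the catalytic subunit of collagen prolyl hydroxylase, was 238, 220, 257 and 236 CPM contralaterally and 258, 418 and 330 ipsilaterally in CTL, and 224, 195, 220 and 243 contralaterally and 396, 398 and 331 ipsilaterally in BLZ945 in sdCAMs. Ipsilateral libraries were above contralateral ones in both treatments, in CTL only just, between A2 ipsilateral and A4 contralateral. P4ha1 rose on average (log2 fold change of 0.63 ± 0.12 SE, edgeR adjusted p = 0.00359; higher in 6 of 6 mice) and in BLZ945 (0.77, edgeR adjusted p = 0.0207), not by the test in CTL (0.50, edgeR adjusted p = 0.149), with an interaction of 0.27 (edgeR adjusted p = 1.00). In BLZ945 the P4ha1 call was lost without mouse C3 (0.148) or C4 (0.131), with the replicate block (0.0541) and with all 16 libraries (0.887) as edgeR adjusted p, with a range of 0.00130 to 0.887, and on average with all 16 libraries (0.881), with a range of 7.83e-05 to 0.881. P4ha2, the isozyme, had counts of 187, 313, 625 and 176 and 70, 2 and 0 in contralateral and ipsilateral BLZ945 libraries and 109, 320, 343 and 66 and 57, 118 and 66 in CTL. It was lower in 6 of 6 mice and did not pass on average (log2 fold change of -2.26 ± 0.77 SE, edgeR adjusted p = 0.0578), but did with the replicate block (edgeR adjusted p = 0.0384 on average and 0.0389 in BLZ945). The ipsilateral counts of BLZ945 lay mostly in C3, and P4ha2 passed on average with no filter (edgeR adjusted p = 0.0364) and by DESeq2 (0.00655). Without C3 it passed too (edgeR adjusted p = 0.00232 on average and 0.0115 in BLZ945, ranges over all alternatives 0.00232 to 0.176 and 0.00412 to 0.378). The log2 fold changes without C3 were -4.52 on average and -8.07 in BLZ945, in place of -2.26 and -3.55. They then rest on ipsilateral BLZ945 counts of 2 and 0.

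Kdm3a, a histone demethylase induced by HIF-1, measured 80.9, 30.8, 41.3 and 41.6 CPM contralaterally and 93.1, 80.8 and 92.8 ipsilaterally in CTL, and 34.6, 53.1, 45.5 and 33.6 contralaterally and 63.9, 81.3 and 55.8 ipsilaterally in BLZ945 in sdCAMs. The hemispheres did not overlap in BLZ945, and in CTL A2 contralateral slightly exceeded A4 ipsilateral. Kdm3a rose on average (log2 fold change of 0.78 ± 0.21 SE, edgeR adjusted p = 0.0217; higher in 6 of 6 mice), and by edgeR the call was lost without mouse A4 (0.0616), B1 (0.0717) or C4 (0.0731) and with all 16 libraries (0.528), with a range of 0.00626 to 0.528. Bnip3, which takes part in the removal of mitochondria, measured 35.2, 49.8, 44.7 and 28.4 CPM contralaterally and 15.4, 22.3 and 21.5 ipsilaterally in CTL, and 26.1, 36.2, 61.7 and 33.1 contralaterally and 21.9, 29.4 and 17.2 ipsilaterally in BLZ945 in sdCAMs. Groups were apart in CTL and met in BLZ945, where C4 ipsilateral exceeded C2 contralateral. Bnip3 fell on average (log2 fold change of -0.89 ± 0.25 SE, edgeR adjusted p = 0.0234; lower in 6 of 6 mice), and its edgeR call was lost without mouse A2 (0.0611), A3 (0.0517), A4 (0.0649), C3 (0.0708) or D1 (0.0589) and with all 16 libraries (0.106), with a range of 0.00118 to 0.106. DESeq2 called Bnip3 in CTL alone (adjusted p = 0.0296, range 0.0296 to 0.382), where edgeR did not (adjusted p = 0.141). In tissue the changes of P4ha1, P4ha2, Kdm3a and Bnip3 were 0.03, -0.14, -0.07 and -0.11.

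Vegfa, the vessel growth factor, read 52.5, 87.0, 57.3 and 61.6 CPM contralaterally and 55.3, 77.7, 67.6 and 58.6 ipsilaterally in CTL, and 58.9, 43.5, 60.6 and 67.3 contralaterally and 64.1, 61.2, 61.9 and 61.1 ipsilaterally in BLZ945 in tissue. The libraries of A3 were the highest of CTL, and hemispheres overlapped in both treatments (log2 fold change of 0.06 ± 0.11 SE, edgeR adjusted p = 0.900; higher in 5 of 8 mice). In sdCAMs Vegfa spread more, at 15.1, 30.7, 31.7 and 32.8 CPM contralaterally and 22.7, 2.08 and 87.1 ipsilaterally in CTL, and 145, 28.4, 31.6 and 114 contralaterally and 12.4, 0.251 and 18.3 ipsilaterally in BLZ945. The BLZ945 groups did not overlap, with C2 and D1 contralateral the highest, and in CTL B1 ipsilateral was the highest and A4 ipsilateral the lowest. Vegfa did not pass on average (log2 fold change of -1.25 ± 0.72 SE, edgeR adjusted p = 0.254; lower in 4 of 6 mice) nor in BLZ945 (-2.94, edgeR adjusted p = 0.132, though DESeq2 called it at 0.0154, range 0.0154 to 0.274), and its interaction was -3.38 ± 1.43 (edgeR adjusted p = 0.992). Tfrc, the transferrin receptor, read 101, 91.5, 77.6 and 99.1 CPM contralaterally and 103, 89.5, 103 and 92.2 ipsilaterally in CTL, and 117, 110, 92.2 and 105 contralaterally and 115, 141, 95.9 and 102 ipsilaterally in BLZ945 in tissue. C3 ipsilateral was the highest and the groups overlapped (log2 fold change of 0.08 ± 0.08 SE, edgeR adjusted p = 0.746; higher in 4 of 8 mice). Tfrc in sdCAMs read 45.2, 42.8, 57.8 and 39.1 CPM contralaterally and 77.0, 25.2 and 89.8 ipsilaterally in CTL, and 112, 34.7, 57.2 and 35.8 contralaterally and 36.6, 60.4 and 55.4 ipsilaterally in BLZ945. C2 contralateral was the highest and A4 ipsilateral the lowest library, with overlap in both treatments (log2 fold change of 0.12 ± 0.31 SE, edgeR adjusted p = 0.875; higher in 5 of 6 mice).

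Adm, which encodes the vasodilator peptide adrenomedullin, was low in tissue, at 3.33, 2.63, 0.928 and 3.42 CPM contralaterally and 2.65, 5.14, 0.973 and 5.19 ipsilaterally in CTL, and 1.71, 3.14, 1.12 and 1.97 contralaterally and 4.06, 5.82, 4.10 and 4.40 ipsilaterally in BLZ945. The BLZ945 groups did not overlap and those of CTL did. Adm was higher in 7 of 8 mice and did not pass (log2 fold change of 0.82 ± 0.32 SE, edgeR adjusted p = 0.221), but did with the replicate block (edgeR adjusted p = 0.00967, range 0.00967 to 0.627, on average and 0.00879, range 0.00879 to 0.634, in BLZ945). Adm in sdCAMs ran from 0 to 158 counts, and passed on average only without mouse C4 (edgeR adjusted p = 0.0154 against 0.526, range 0.0154 to 0.797), whose ipsilateral library held the 158 and whose contralateral one 0. Ankrd37 and Car9, the latter a carbonic anhydrase, had at most 3.92 and 1.87 CPM in tissue and 15.6 and 18.3 CPM in sdCAMs, with changes of 0.08 and -0.09 in tissue and -1.73 and 0.03 in sdCAMs, none past the edgeR test. DESeq2 called Ankrd37 in sdCAMs (adjusted p = 0.0249, range 0.0249 to 0.353). Ddit4, a brake on the growth kinase mTORC1, the Myc antagonist Mxi1 and the mitochondrial protein gene Higd1a gave -0.09, -0.13 and 0.05 in tissue and -0.83, 0.24 and -0.57 in sdCAMs. Ddit4 was lower in 6 of 6 mice in sdCAMs, at 0 to 28.7 CPM in ipsilateral and 3.39 to 37.0 CPM in contralateral CTL libraries.

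Prior BLZ945 treatment was compared with CTL within each hemisphere, and no member passed. BLZ945 had been given and withdrawn 8 weeks before the stroke. The study reports that it depleted microglia and sdCAMs, and that both were back in number by then. Per the study, returning sdCAMs came in part from blood monocytes and kept a distinct transcriptome. The comparison thus asks whether these genes differed after depletion and repopulation, with sdCAMs of partly different origin. The part of origin was not tested. In ipsilateral tissue, edgeR called 0 of 42 members (background 0% of genes tested), with 1 at an unadjusted p under 0.05 (4.52% of all genes) and 0 by DESeq2. In contralateral tissue it called 0 (background 0%), with 0 at an unadjusted p under 0.05 (3.25% of all genes) and 0 by DESeq2. In ipsilateral sdCAMs it called 0 (background 0%), with 1 unadjusted (5.65% of all genes) and 0 by DESeq2. In contralateral sdCAMs it called 0 (background 0%), with 9 unadjusted, all higher in BLZ945 (6.19% of all genes in either direction), and 0 by DESeq2. The members' median log2 fold change (BLZ945 over CTL) in contralateral sdCAMs was 0.26, beside 0 over all genes tested. Marker sums also differed between these libraries. The sum of the 7 microglia genes in contralateral sdCAMs was 15429, 13011, 14046 and 11700 CPM in CTL and 8309, 10390, 5533 and 6847 in BLZ945, so every BLZ945 library was below every CTL one. By edgeR 0 of these 7 genes passed (6 at an unadjusted p under 0.05, all lower in BLZ945; 0 by DESeq2), and 0 of 9 sdCAM markers (4 unadjusted, all lower in BLZ945; 1 by DESeq2, Cd163, lower). The neutrophil sum in contralateral sdCAMs was 380, 168, 124 and 552 CPM in CTL and 1845, 87.4, 2919 and 2403 in BLZ945, the monocyte sum 169, 116, 168 and 205 and 1003, 173, 456 and 992, and the choroid plexus sum 30.7, 269, 9056 and 98.4 and 1424, 20270, 37683 and 5401. The neutrophil and monocyte sums of C2, C4 and D1 were above all of CTL and those of C3 were not, and the choroid plexus sums overlapped through A4. By edgeR 0 of 8 neutrophil, 0 of 7 monocyte and 0 of 6 choroid plexus genes passed (3, 2 and 0 at an unadjusted p under 0.05, all higher in BLZ945; 0, 1 and 0 by DESeq2), although the sort kept Ly6C−Ly6G−CD206+ cells and the choroid plexus had been removed. The part of any of these cells in the member shift was not tested. Eno1 had the smallest unadjusted p there, at 332, 285, 274 and 262 CPM in CTL and 414, 342, 538 and 413 CPM in BLZ945. All BLZ945 values were above those of CTL (0.57 ± 0.18 SE, edgeR adjusted p = 0.759). The difference of the hemisphere effect between treatments was called for 0 members in tissue (background 0%; 1 unadjusted, against 2.04%; 0 by DESeq2) and 0 in sdCAMs (background 0%; 2 unadjusted, against 4.98%; 0 by DESeq2). Summed over all members, ipsilateral tissue held 9514 to 10862 CPM in CTL and 9663 to 10652 CPM in BLZ945, and ipsilateral sdCAMs 4422 to 5432 and 5051 to 5531 CPM. The ranges of the treatments overlapped in each. Contralateral sums were 9619 to 10421 and 9552 to 10744 CPM in tissue, and 4234 to 5462 and 5444 to 6848 CPM in sdCAMs, where 1 BLZ945 library lay within the CTL range and the other 3 above it.

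To set members against each other, levels were divided by the length of their merged exons, as mean CPM per kilobase over the libraries of each hemisphere. On this level scale, Aldoa led in tissue at 507 contralaterally and 526 ipsilaterally, followed by Aldoc at 322 and 288. Ldhb (271 and 245) and Eno2 (257 and 253) came next, with overlapping libraries and in exchanged order between the hemispheres. The lowest were Hk3 and Car9 contralaterally (0.390 and 0.416, libraries overlapping) and Car9 ipsilaterally (0.389). In sdCAMs Ldhb was ahead of Aldoa contralaterally (237 and 215) and behind it ipsilaterally (156 and 184), with overlapping libraries in both, and Ldha followed them in both (122 and 117). The lowest were Egln3 and Eno2 contralaterally (1.88 and 1.89, libraries overlapping) and Pdk4 ipsilaterally (0.0405). Hexokinase levels per kilobase differed in order between the materials. In tissue Hk1 stood at 63.6 contralaterally and 62.6 ipsilaterally, Hk2 at 0.851 and 1.30 and Hk3 at 0.390 and 1.13. In sdCAMs Hk3 had the highest mean of the 3, at 16.9 and 35.3. Hk1 was above Hk2 contralaterally (10.7 and 9.68) and below it ipsilaterally (7.62 and 13.6), with overlapping libraries in both. Exon lengths came from GENCODE vM21, which need not be the annotation of the counts, so that these levels carry that uncertainty.

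The balance of isozymes was followed as the log2 ratio of their CPM in each library, ipsilateral minus contralateral within the mouse, which needs neither gene length nor scaling. Over 10 ratios in each material none passed an adjusted p of 0.05 over all 20 tests (exact sign-flip permutation test over mice, smallest adjusted p = 0.0625), with 3 in tissue and 7 in sdCAMs at an unadjusted p under 0.05. The smallest p that 8 mice allow is 0.00781, and with the 6 sdCAM pairs it is 0.0312, which cannot pass after adjustment unless many ratios reach it. In tissue Hk3/Hk1 moved by 1.54, 0.17, 0.43, 1.49, 2.05, 2.51, 1.24 and 2.02 in mice A2 to D1. All 8 were above 0, with A3 and A4 the smallest (mean 1.43 ± 0.81 SD, exact permutation p = 0.00781, adjusted p = 0.0625). Ldha/Ldhb in tissue moved by 0.65, 0.19, 0.40, -0.13, 0.44, 0.34, 0.71 and 0.15. It was above 0 in 7 of 8 mice and below in B1 (mean 0.34 ± 0.27 SD, exact permutation p = 0.0156, adjusted p = 0.0625). Hk2/Hk1 had a mean of 0.65 ± 0.26 SD in tissue, above 0 in 8 of 8 mice (exact permutation p = 0.00781, adjusted p = 0.0625). Hk3 and Hk2 were themselves higher in 8 of 8 mice, so the tissue ratios to Hk1 repeat those rises.

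In sdCAMs 7 ratios were above 0 in 6 of 6 mice, each at the smallest exact p of 0.0312 and an adjusted p of 0.0625. Of their second-named genes, Slc16a1, Aldoc, Ldhb, Eno2, Pfkm and P4ha2 were each lower in 6 of 6 mice. The ratios to these genes repeat those falls and are no separate evidence. Slc16a3/Slc16a1 moved by 1.01, 2.40, 1.23, 2.44, 1.82 and 1.20 in mice A2, A4, B1, C3, C4 and D1 (mean 1.68 ± 0.63 SD). Aldoa/Aldoc moved by 2.40, 1.17, 3.17, 1.46, 1.83 and 1.99 (mean 2.00 ± 0.71 SD). Ldha/Ldhb moved by 0.63, 0.09, 1.41, 0.74, 0.75 and 0.35 (mean 0.66 ± 0.45 SD). In each of these 3 every mouse shifted towards the first-named gene. The means of Hk3/Hk1, Pfkl/Pfkm, Eno1/Eno2 and P4ha1/P4ha2 were 1.66, 1.29, 3.52 and 3.85, the last resting on C4 and D1, where P4ha2 had 2 and 0 ipsilateral counts. Eno1/Eno2 rested likewise on A2, A4 and D1, where Eno2 had 3, 1 and 1 ipsilateral counts (5.85, 6.65 and 4.05, the other mice 1.18 to 1.80). The other 3 ratios, Hk2/Hk1, Pfkp/Pfkm and Pfkfb3/Pfkfb4, had mice on both sides of 0.

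Beside the members, 50 other genes of the pathway were listed, of which 49 had a row and 48 were tested in tissue and 47 in sdCAMs. In tissue edgeR called 1 of 48 up and 0 down in CTL, in BLZ945 and on average, against 0.485, 1.26 and 2.53% of all genes up. At an unadjusted p under 0.05 were 2, 7 and 10 (6.23%, 10.8% and 14.3% of all genes), and DESeq2 called 1, 1 and 2 up (0.828%, 2.12% and 3.41%) and 0 down. The gene called by edgeR was Plin2, which coats lipid droplets, at 5.71, 4.67, 4.95 and 5.09 CPM contralaterally and 11.1, 12.1, 10.2 and 13.1 CPM ipsilaterally in CTL and 6.86, 4.60, 5.77 and 4.87 and 19.6, 11.2, 11.6 and 14.3 CPM in BLZ945. No ipsilateral library met a contralateral one, and the average log2 fold change was 1.27 ± 0.13 (SE; edgeR adjusted p = 1.83e-05; higher in 8 of 8 mice), with 1.18 in CTL (edgeR adjusted p = 0.00451) and 1.36 in BLZ945 (edgeR adjusted p = 0.000714). With the hemispheres of A3 as in the column names, Plin2 did not pass (edgeR adjusted p = 0.110 on average and 0.0942 in BLZ945, ranges over all alternatives 2.37e-16 to 0.110 and 6.98e-09 to 0.0942), and in CTL it was lost that way too (1.00) and without A3 (0.0753) or B1 (0.0911). In sdCAMs edgeR called 0 of 47 up and 3 down in CTL, against 0.426% and 2.36% of all genes (16 at an unadjusted p under 0.05, against 18.3%). It called 1 up and 6 down in BLZ945, against 1.2% and 4.41%, and 2 up and 11 down on average, against 4.98% and 11.2%. Of the BLZ945 calls, Slc2a1 and Epas1 passed both without C3 and without C4 (1.85% and 1.43% of all genes down). Bpgm, Pdk2, Ak4, Slc2a4 and Plod1 passed in neither (0.0769% and 0.0438% up). Of the average calls, Slc2a1, Bpgm, Epas1, Lox, Ak4 and Slc2a4 still passed with all 16 libraries, each lower (0.456% of all genes up and 5.99% down). DESeq2 called 2 up and 10 down in CTL (1.75% and 8.21% of all genes), 1 and 10 in BLZ945 (2.81% and 10.95%) and 2 and 16 on average (5.74% and 16.5%). Those with the smallest p included Epas1, the HIF-2α gene of endothelium, with counts of 725, 1488, 1500 and 718 and 137, 136 and 54 in CTL and 1261, 1290, 1499 and 1159 and 73, 31 and 115 in BLZ945 (contralateral and ipsilateral). Slc2a1, the glucose transporter of the blood-brain barrier, had 6190, 18773, 20988 and 5020 and 1340, 1121 and 1487, and 6926, 13478, 15187 and 8301 and 798, 949 and 1037. Both were lower in all ipsilateral libraries than in any contralateral one (-3.52 ± 0.32 and -3.17 ± 0.30 on the log2 scale, edgeR adjusted p = 2.00e-05 and 2.68e-05; each lower in 6 of 6 mice). Bpgm and Pdk2 gave -1.86 and -0.99 (edgeR adjusted p = 0.000424 and 0.00813; each lower in 6 of 6 mice), and Plod1, a lysyl hydroxylase of collagen, 0.93 (edgeR adjusted p = 0.00123; higher in 6 of 6). With all 16 libraries Pdk2 and Plod1 did not pass (edgeR adjusted p = 0.0528 and 0.578, ranges 5.61e-05 to 0.0528 and 1.85e-06 to 0.578). No fold is given for 3 others that passed as lower, since ipsilateral groups were at or near 0. Hkdc1 had 0 counts in all 6 ipsilateral libraries, against 48, 30, 25 and 72 contralaterally in CTL and 0, 14, 4 and 1 in BLZ945 (edgeR adjusted p = 0.0102, but 0.0847 with the replicate block and 1.00 with all 16 libraries, range 0.000128 to 1.00). Ak4 had ipsilateral counts of 0, 0 and 19 in CTL and 0, 0 and 0 in BLZ945, against 66, 34, 126 and 47 and 23, 56, 33 and 38 (edgeR adjusted p = 0.00888). Slc2a4 had 0, 19 and 0 and 0, 5 and 0, against 53, 289, 265 and 66 and 135, 160, 206 and 41 (edgeR adjusted p = 0.00635); each of the 3 was lower in 6 of 6 mice.

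HIF binds the core words ACGTG and GCGTG, and promoters of the members were read for both, on both strands, in RefSeq windows of 300 bases (250 before to 50 after the start, build GRCm38.p6). The palindrome CACGTG counts once on each strand. Windows were given for 40 of 42 members, 59 in all, and not for Slc2a3 and Ndrg1. At least 1 word stood in 79.7% of the 59 member windows, against 43.8% of 32851 windows of all genes, and 37 of the 40 member genes (92.5%) had a window with a word, against 46.7% of 27025 genes. Gpi1, Tpi1 and Eno2 had none. Members were listed as genes of glycolysis and of the response to low oxygen, so an excess of words can come with that choice. Members also had more windows per gene, which raises their share by gene. Neither part was tested. A match describes the letters only. Windows are shown for Hk3, which rose in both materials, for P4ha1, which rose in sdCAMs, and for Bnip3, which fell there, with the words and their reverse complements in capitals. Hk3 (chr13:55021336-55021635, minus strand) holds 1 ACGTG and no GCGTG, P4ha1 (chr10:59323046-59323345, plus strand) holds 1 and 2, and Bnip3 (chr7:138909457-138909756, minus strand) holds 2 and 3, so that members that rose and a member that fell both carry them.
Hk3: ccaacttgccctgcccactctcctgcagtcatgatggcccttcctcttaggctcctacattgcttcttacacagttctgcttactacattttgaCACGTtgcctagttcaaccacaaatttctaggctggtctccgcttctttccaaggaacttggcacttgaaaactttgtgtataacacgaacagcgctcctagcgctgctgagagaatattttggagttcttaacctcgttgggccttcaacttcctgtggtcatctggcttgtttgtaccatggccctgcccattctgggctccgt
P4ha1: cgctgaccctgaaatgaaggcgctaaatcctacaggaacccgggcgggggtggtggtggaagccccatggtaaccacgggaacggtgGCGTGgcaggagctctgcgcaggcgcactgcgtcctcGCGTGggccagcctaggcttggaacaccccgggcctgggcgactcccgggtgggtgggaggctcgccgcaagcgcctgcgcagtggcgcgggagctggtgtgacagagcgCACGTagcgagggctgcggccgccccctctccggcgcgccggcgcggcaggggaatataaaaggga
Bnip3: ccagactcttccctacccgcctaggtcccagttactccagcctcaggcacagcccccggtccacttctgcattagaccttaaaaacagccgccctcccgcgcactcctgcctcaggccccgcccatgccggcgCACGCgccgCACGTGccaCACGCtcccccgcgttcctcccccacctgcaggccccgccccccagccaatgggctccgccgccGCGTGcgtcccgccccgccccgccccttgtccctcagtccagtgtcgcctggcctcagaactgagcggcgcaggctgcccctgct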

How the data were processed

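Bulk RNA was measured in 32 libraries, 16 of tissue and 16 of sdCAMs, from both hemispheres of 8 mice. Per the labels, the libraries were made with Nextera XT and read as 50-base single reads, and the authors demultiplexed with bcl2fastq 2.20, aligned with STAR 2.7.11a and counted with featureCounts 2.0.8 on Gencode M36. The deposited tables hold raw gene counts. The sources name mm10 and GRCm39, and it is not stated which was used for these counts; no coordinates of the counts are given here. Of the columns of the tables, 0 were unused, and the sdCAM libraries of A3 ipsilateral and C2 ipsilateral, left out as degraded, enter only the alternative with all 16 libraries. Library 19 was taken as ipsilateral tissue of A3.

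Members and gene lists were chosen with earlier results of these data known. Sums and counts over the whole microglia and oligodendrocyte marker lists are not reported here, and the genes of these cells that are named and summed were chosen after their values were seen. Counts were tested with the quasi-likelihood F test of edgeR 4.0.16 (limma 3.58.1, R 4.3.3) after scaling by trimmed means (TMM), keeping genes whose counts summed to 8 or more (tissue) or 7 or more (sdCAMs), with a mean per treatment and hemisphere, separately in each material. Compared were ipsilateral with contralateral in CTL, in BLZ945 and on average, BLZ945 with CTL in each hemisphere, and the interaction. The p-values were adjusted by Benjamini-Hochberg over all genes tested, and genes under 0.05 were called. The procedure was tested on simulated data. Isozyme ratios used a prior count of 0.5 and an exact sign-flip permutation test over mice, adjusted over 20 tests. Python 3.11.15, numpy 2.4.6, scipy 1.17.1, pandas 2.3.3 and matplotlib 3.10.9 were used, and RefSeq promoters and GENCODE vM21 exon lengths.

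Totals ranged from 9288717 to 12781505 counts in tissue and 7397393 to 11081409 in sdCAMs used, and replicates differed by a chi-square per degree of freedom of 3.85 to 24.1 and 28.4 to 115, well above counting error. Alternatives were DESeq2 1.42.0, its size factors in edgeR, no filter, filterByExpr, a log2 fold change beyond 0.59, the mouse as a replicate block, leaving out each mouse, the hemispheres of A3 as in the column names, all 16 sdCAM libraries, and a prior count of 5 for the ratios. The hemispheres pair because they come from the same animal, per the labels. The deviations of paired libraries from their group means had a median correlation of 0.436 in tissue (0.214 to 0.645, 8 pairs; -0.0651 between mice) and 0.122 in sdCAMs (0.0451 to 0.191, 6 pairs; -0.0202 between mice). Named were members called in any comparison, the fixed genes Hk3, Slc2a3, Ldha, Hif1a, Gapdh, Vegfa and Tfrc, and up to 8 other pathway genes with the smallest p; further members were named after their values were seen.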

Additional observations from a re-analysis of the deposited data

Results flagged for a closer look

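Within groups of 4 libraries, a library was looked at more closely when its gap to the nearest of the others, divided by the whole range of the group, was above the 95% critical value of Dixon's test. Among members with a mean of at least 1 CPM, this held in 11 of 165 groups in tissue and 7 of 84 in sdCAMs, and chance does so in about 1 in 20 groups. High in tissue, with the gap over the range last, were Eno1 in B1 contralateral (329 CPM, others 286 to 293; 0.833), Pdk4 in A3 contralateral (15.1 CPM, others 9.99 to 10.3; 0.936), Pfkfb4 in D1 contralateral (17.4 CPM, others 12.8 to 13.5; 0.856), Slc2a3 in C3 ipsilateral (219 CPM, others 156 to 164; 0.878) and Eno1 in C3 ipsilateral (325 CPM, others 276 to 279; 0.925).

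Low in tissue were Slc16a3 in A2 ipsilateral (4.29 CPM, others 6.43 to 6.86; 0.831), Ldha in B1 ipsilateral (151 CPM, others 186 to 190; 0.889), Pdk4 in A2 ipsilateral (8.35 CPM, others 13.5 to 13.7; 0.960), Pkm in D1 contralateral (446 CPM, others 499 to 509; 0.833), Ankrd37 in C3 contralateral (1.88 CPM, others 2.61 to 2.72; 0.868) and Pfkl in D1 ipsilateral (164 CPM, others 214 to 217; 0.932).

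High in sdCAMs were Pgk1 in A3 contralateral (51.1 CPM, others 37.6 to 38.8; 0.917), Aldoa in C4 contralateral (1292 CPM, others 789 to 823; 0.932) and Eno2 in C4 contralateral (19.9 CPM, others 2.98 to 3.41; 0.974). Low in sdCAMs were Pfkfb4 in A3 contralateral (42.5 CPM, others 62.8 to 63.6; 0.962), Vegfa in A2 contralateral (15.1 CPM, others 30.7 to 32.8; 0.881), Ddit4 in A2 contralateral (3.39 CPM, others 34.7 to 37.0; 0.934) and Pfkfb4 in C4 contralateral (25.3 CPM, others 72.0 to 77.2; 0.901).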

How the results depend on the processing

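Over all alternatives, 273 of 304 counts of called members and ratios stayed within 1.5 times their value, and 31 did not, and the cause was not tested. The 273 include counts that were 0 in the main fit and stayed 0. Treatment, interaction and ratio counts all started at 0, so the 273 overstate how steady the other counts were. With DESeq2, 2 members were up in BLZ945 tissue (1 by edgeR; 2.12% of all genes tested, 1.26% by edgeR). In sdCAMs 5 were down in CTL (3; 8.21% of all genes, 2.36% by edgeR), 8 in BLZ945 (4; 10.95% and 4.41%) and 11 on average (6; 16.5% and 11.2%). With the hemispheres of A3 as in the column names, 0 were up in the tissue average (2), where 1 of 18968 genes was up in place of 480, so the drop is not particular to the members. With all 16 sdCAM libraries, 1 was down in CTL (1.10% of all genes), 0 up and 2 down in BLZ945 (0.0217% and 2.30%), and 0 up and 3 down on average (0.456% and 5.99%). Leaving out each mouse in turn, the counts ranged from 1 to 2 up in the tissue average, 0 to 1 up and 0 to 3 down in CTL sdCAMs, 0 to 2 up and 2 to 5 down in BLZ945 sdCAMs, and 2 to 4 up and 4 to 8 down in the sdCAM average. The shares of all genes in the same order were 1.48 to 2.33%, 0.0274 to 0.618% and 0.734 to 2.73%, 0.0438 to 1.34% and 1.43 to 5.44%, and 2.64 to 4.57% and 7.38 to 9.97%. The median over all genes of the sdCAM average was -0.16 with TMM and -0.24 with DESeq2 size factors.

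With the replicate block for the mouse, 4 members were up in BLZ945 tissue (2.69% of all genes) and 6 in the tissue average (4.06%), and 1 was up (1.46%) and 7 were down (3.73%) in BLZ945 sdCAMs; the calls that the block changed are named in the report, and it changed no other call of a member.

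Of 330 log2 fold changes of called members under alternatives, 265 kept direction and side of the threshold, 65 kept the direction but not the threshold and 0 reversed. Depth limits what can be said of genes near the floor of 3 counts, 0.234 to 0.321 CPM in tissue and 0.253 to 0.389 CPM in sdCAMs, and groups of 3 and 4 mice of 1 batch limit the rest.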
